A study of Sus scrofa with 18 samples.

Results

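The genes described here encode the nuclear part of the mitochondrial respiratory chain and of ATP synthase. They were taken by symbol from the array's annotation: every gene whose symbol starts with NDUF, SDHA to SDHD, UQCR, COX4 to COX8 or ATP5, together with cytochrome c itself. Of 6765 genes named on the array, 65 met the rule: 33 of complex I, 4 of complex II, 2 of complex III, 1 for cytochrome c, 7 of complex IV, 14 of ATP synthase and 4 assembly factors. Where a gene had several probe sets, the one with the highest mean log2 ratio over the 18 arrays was used (83 probe sets in all, with more than 1 for 15 genes). CYC1, UQCRC1, UQCRC2, COX4I1, COX5A and the chain's mitochondrially encoded subunits were not analysed here. The rule itself uses symbols and mean ratios and no difference between diets, but it was chosen with earlier results of these data known.

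Complex I passes electrons from NADH, and complex II from succinate, to ubiquinone. Complex III hands them to cytochrome c, complex IV hands them from there to oxygen, and the proton gradient built on the way drives ATP synthase. In the liver this machinery supplies ATP for gluconeogenesis, urea synthesis and protein secretion, and it takes up the electrons released by fatty acid oxidation, which the suckling newborn relies on for much of its energy. Each complex holds catalytic core subunits and smaller accessory subunits, and a few complex IV subunits come in liver and heart-and-muscle isoforms.

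The arrays held liver RNA of male and female piglets at postnatal day 21. Piglets either stayed with the sow and took breast milk (called sow milk here) or received a commercial infant formula, based on cow's milk (milk formula) or on soy (soy formula), from day 2. There were 6 groups of sex and diet with 3 RNA pools each. No strain, genotype or number of piglets per pool was given in the sources used here, so the p-values measure the spread between pools. Each deposited value is an expression ratio for 1 probe set on 1 array. The divisor was not stated. It was taken to be the same on all arrays, so a ratio compares arrays for 1 gene and never 1 gene with another. Whole liver was sampled, so fewer cells of a type and less RNA per cell cannot be told apart.

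The arrays of the sexes stood apart. The 9 hybridisation control probe sets were a median 8.60-fold higher on male arrays, and a probe set for 28S ribosomal RNA ranged from 1.62 to 4.65 in males against 0.0773 to 0.383 in females. Not all ribosomal sets went that way: an 18S set ranged from 0.304 to 1.01 in males against 0.629 to 3.12 in females. The median standard deviation of a gene within a group was 0.29 on the log2 scale in males and 0.11 in females over the 65 genes, and the male spread was the larger for 62 of them. Results over both sexes are therefore given with those of each sex. For a value over both sexes, the male and the female difference were averaged. All 14 hepatocyte markers were measured, and their summed ratio ranged from 9.19 to 19.3 over the arrays. That range was 9.19 to 12.7 in males and 14.9 to 19.3 in females. The summed ratio of 8 lymphocyte markers ranged from 1.68 to 2.33 and that of 10 muscle markers from 2.34 to 4.19. Such sums compare arrays within a list and never a list with another.

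Over both sexes, soy formula against sow milk was the only pair of diets with any of the 65 genes past the adjusted threshold. Cytochrome c (CYCS), the complex I subunits NDUFB3 and NDUFB1 and the catalytic beta subunit of ATP synthase (ATP5B) rose, and the complex I subunit NDUFB7 fell. These were 5 of the 65 genes past an adjusted p of 0.05 (limma, Benjamini-Hochberg over all 23935 probe sets), or 7.69%, against 3.28% of all probe sets. In the upward direction they were 4 genes against 1.52% of all probe sets, and in the downward direction 1 gene against 1.75%. The 65 genes had a median log2 difference of 0.12, with 47 above 0 (72.3%, against 50.0% of all probe sets), while all probe sets had a median of 0.00. Without male soy pool 1 the median was 0.07, with 37 genes above 0, and without male soy pool 2 it was 0.19, with 50. Without adjustment, at a p under 0.05, 21 genes passed, 32.3% against 14.3% of all probe sets. Of these 19 were higher (29.2%, against 6.86% of all probe sets) and 2 lower (3.08%, against 7.47%). Without female sow pool 1 or 3, or female soy pool 1 or 3, the number past the adjusted threshold was 0.

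CYCS encodes the small soluble protein that carries electrons from complex III to complex IV and that also triggers the apoptosome when released from mitochondria. In females its ratio was 1.28, 1.03 and 1.09 in the sow milk pools, 1.16, 1.26 and 2.67 in the milk formula pools, and 2.46, 2.68 and 2.78 in the soy formula pools. In males it was 0.458, 0.825 and 0.428 with sow milk, 0.968, 0.643 and 0.377 with milk formula, and 0.916, 0.713 and 0.877 with soy formula. All female soy pools lay above all female sow pools, and 1 female milk formula pool lay among the soy pools and far above its own group. The male soy and sow pools overlapped. The log2 difference between soy formula and sow milk was 0.92 over both sexes (SE 0.23, adjusted p = 0.0318, limma), 1.22 in females (SE 0.26, adjusted p = 0.0193) and 0.61 in males (SE 0.34, adjusted p = 0.738). The both-sex call was lost, with adjusted p from 0.0521 to 0.0829, when any 1 of the 6 female sow or soy pools, male sow pool 1 or 3, or male soy pool 1 or 3 was left out. Quantile normalization (adjusted p = 0.0771) and weighting the arrays by sex (0.112) ended it too.

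NDUFB3 is an accessory subunit of the membrane arm of complex I. Its ratio in females was 1.17, 1.79 and 1.33 with sow milk, 1.27, 1.04 and 1.38 with milk formula, and 2.59, 2.01 and 2.86 with soy formula. In males it was 0.420, 0.715 and 0.804 with sow milk, 0.622, 0.826 and 0.902 with milk formula, and 0.956, 0.899 and 0.859 with soy formula. Soy pools lay above sow pools in both sexes, with gaps from 1.79 to 2.01 in females and from 0.804 to 0.859 in males. The log2 difference was 0.67 over both sexes (SE 0.16, adjusted p = 0.0267, limma), 0.81 in females (SE 0.18, adjusted p = 0.0236) and 0.54 in males (SE 0.27, adjusted p = 0.684). The second NDUFB3 probe set gave 0.48 over both sexes (adjusted p = 0.217) and 0.54 in females (adjusted p = 0.03). Leaving out female sow pool 1 or 3, female soy pool 1 or 3, or male sow pool 1 ended the both-sex call (adjusted p from 0.0537 to 0.0849), as did quantile normalization (0.0897) and array weights by sex (0.0926).

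ATP5B carries the catalytic sites of ATP synthase. In females the ratio was 1.26, 1.42 and 1.36 with sow milk, 1.51, 1.27 and 1.56 with milk formula, and 1.87, 1.96 and 1.85 with soy formula. In males it was 0.390, 0.413 and 0.449 with sow milk, 0.550, 0.534 and 0.424 with milk formula, and 0.742, 0.567 and 0.429 with soy formula. The female soy pools were the highest of their sex without overlap, whereas 1 male soy pool lay within the sow range. The log2 difference was 0.47 over both sexes (SE 0.13, adjusted p = 0.0470, limma), 0.49 in females (SE 0.10, adjusted p = 0.0148) and 0.44 in males (SE 0.24, adjusted p = 0.730). The both-sex call stood next to the threshold: of the 18 runs without 1 pool it held in those without male milk pool 1, male milk pool 3 or male soy pool 3, and in the others the adjusted p ran from 0.0505 to 0.118.

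NDUFB1 is a small accessory subunit of the membrane arm. In males its ratio was 0.530, 0.459 and 0.502 with sow milk and 0.657, 0.720 and 0.695 with soy formula, with milk formula between them at 0.629, 0.571 and 0.582. In females it was 1.45, 1.42 and 1.48 with sow milk, 1.46, 1.28 and 1.57 with milk formula, and 1.76, 1.53 and 1.91 with soy formula. Soy and sow pools did not overlap in either sex. The log2 difference was 0.36 over both sexes (SE 0.10, adjusted p = 0.0437, limma), 0.48 in males (adjusted p = 0.589) and 0.25 in females (adjusted p = 0.219). The both-sex call held without any 1 of the 3 male milk pools, male sow pool 1, male soy pool 1 or female soy pool 2, and without any other pool its adjusted p ran from 0.0527 to 0.143.

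NDUFB7, an accessory subunit on the intermembrane side of complex I, was the member that fell. In females the ratio was 1.42, 1.47 and 1.47 with sow milk, 1.15, 1.05 and 1.10 with milk formula, and 1.16, 1.10 and 1.13 with soy formula. In males it was 0.749, 0.804 and 0.953 with sow milk, 0.671, 0.645 and 0.533 with milk formula, and 0.588, 0.375 and 0.644 with soy formula. In both sexes every formula pool, of either kind, lay below every sow pool. Soy formula against sow milk gave a log2 difference of -0.52 over both sexes (SE 0.13, adjusted p = 0.0258, limma), -0.36 in females (SE 0.08, adjusted p = 0.0189) and -0.67 in males (SE 0.25, adjusted p = 0.504). Without any 1 of the 6 female sow or soy pools or male sow pool 3 the both-sex call was lost (adjusted p from 0.0553 to 0.0701).

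**Figure D1:**
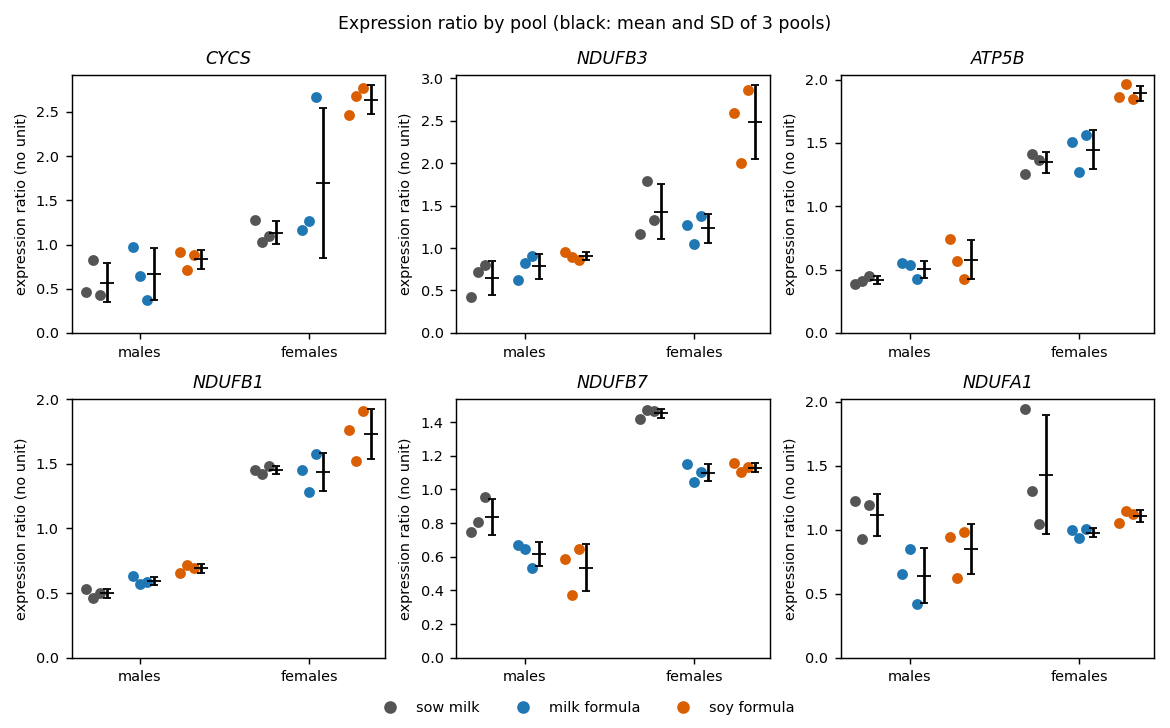
Expression ratio (no unit, vertical axis from 0) of CYCS, NDUFB3, ATP5B, NDUFB1, NDUFB7 and NDUFA1 in each RNA pool, males left and females right, coloured by diet, with the mean and SD of 3 pools in black. Female soy pools of CYCS (2.46 to 2.78) lie above the sow pools (1.03 to 1.28), and every formula pool of NDUFB7 lies below every sow pool of its sex.

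Separation of the pools was also counted for all members. Soy pools lay above sow pools in both sexes for 5 genes (ATP5D, COX6C, NDUFB1, NDUFB3 and NDUFV1), 7.69% against 1.61% of all probe sets. They lay below in both sexes for 2 genes (NDUFB7 and SDHAF2), 3.08% against 1.73% of all probe sets.

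Counts by complex are for soy formula against sow milk in males and females together. ATP synthase had 12 of 14 genes above 0 and a median log2 difference of 0.27. Complex I had 23 of 33 above 0 and a median of 0.03, complex II 2 of 4 and 0.05, complex IV 5 of 7 and 0.08, and the assembly factors 2 of 4 and 0.06. Both complex III genes were above 0 (UQCRB 0.34, adjusted p = 0.441; UQCR10 0.15, adjusted p = 0.675; limma). Without male soy pool 1 the median of complex I was -0.03, with 15 of 33 genes above 0, and that of ATP synthase was 0.20, with 11 of 14. No test of the difference between complexes was made.

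Within complex I, the range ran from NDUFB3 at 0.67 to NDUFB7 at -0.52, and both ends belong to the NDUFB group of membrane-arm subunits, of which 6 of 10 were above 0. The next highest NDUFB gene, NDUFB9, had a log2 difference of 0.58 with an adjusted p of 0.0594 (limma). The 5 core subunits measured, which hold the flavin, iron-sulphur or quinone-binding parts of the electron path, had a median of 0.16. NDUFV1, which binds NADH and flavin, was highest among them at 0.41 (adjusted p = 0.216). NDUFS1, which carries iron-sulphur clusters, stood at 0.30 (adjusted p = 0.130), and NDUFS7 was the lowest at -0.17 (adjusted p = 0.637). The 13 NDUFA and NDUFAB1 genes had a median of 0.02, from NDUFA8 at 0.39 to NDUFA1 at -0.37, and none passed the test.

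ATP synthase is a rotary enzyme with a catalytic F1 head, a membrane ring of c subunits and a peripheral stalk. Besides ATP5B, the head subunits ATP5A1 (alpha) and ATP5D (delta) had log2 differences of 0.37 (adjusted p = 0.127) and 0.31 (adjusted p = 0.174), and ATP5E (epsilon) of -0.03 (adjusted p = 0.953; limma). The 3 genes of the c ring, ATP5G1, ATP5G2 and ATP5G3, encode the same mature protein and had differences of 0.28, 0.25 and 0.39, each with an unadjusted p under 0.05 and none past the adjusted threshold (adjusted p from 0.141 to 0.331). The stalk and other subunits ranged from ATP5J at -0.14 to ATP5F1 at 0.31.

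In complex II, which is also the succinate dehydrogenase of the citric acid cycle, no gene passed the test. The flavoprotein SDHA had a log2 difference of 0.12 (adjusted p = 0.702), the iron-sulphur subunit SDHB of 0.20 (adjusted p = 0.499), and the membrane anchors SDHC and SDHD of -0.06 (adjusted p = 0.935) and -0.02 (adjusted p = 0.963; limma). Without male soy pool 2 the SDHC difference was 0.17. SDHAF2, which helps to attach flavin to SDHA, had a difference of -0.44 (adjusted p = 0.0729). Its ratio in males was 2.21, 1.65 and 1.93 with sow milk and 1.51, 1.01 and 1.22 with soy formula, without overlap. Its second probe set gave 0.14 (adjusted p = 0.652), the opposite direction.

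No gene of complex IV passed the test in any comparison of diets. COX6C, an accessory subunit, came nearest for soy formula against sow milk at 0.36 (adjusted p = 0.0675). Its ratio was 0.415, 0.468 and 0.432 in male sow pools and 0.727, 0.491 and 0.552 in male soy pools, and 1.34, 1.35 and 1.27 in female sow pools and 1.64, 1.63 and 1.65 in female soy pools. The soy pools thus lay above the sow pools in both sexes. Male milk formula pools, at 0.548, 0.599 and 0.603, also lay above the male sow pools. In males the log2 difference between soy and milk formula was -0.002. The female milk formula pools, at 1.465, 1.297 and 1.543, overlapped the female sow pools. The liver isoforms COX7A2 and COX6A1 had differences of 0.32 (adjusted p = 0.145) and 0.20 (adjusted p = 0.500), while the heart-and-muscle isoforms COX7A1 and COX8H had -0.15 (adjusted p = 0.626) and -0.05 (adjusted p = 0.929; limma). Of 10 muscle markers none passed the test, and their median was 0.02. COX5B and COX7C both stood at 0.08.

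**Figure D2:**
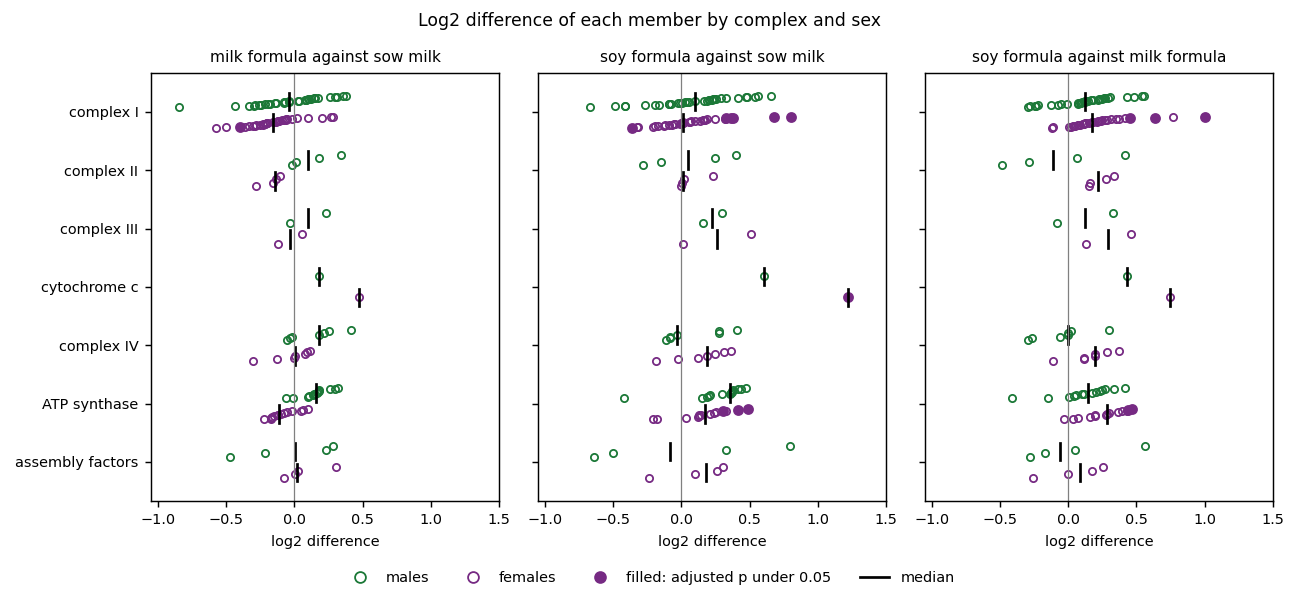
Log2 difference of each of the 65 genes (horizontal axis) by complex, for males (green) and females (purple), in 3 panels for the 3 pairs of diets. Filled points have an adjusted p under 0.05 in the fit of that sex and black bars are medians; all filled points are female, and for soy formula against sow milk they number 10.

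In females alone more genes passed the test. Soy formula against sow milk changed 10 of 65 genes, 15.4% against 6.66% of all probe sets. Of these, 9 rose (13.8%, against 3.60% of all probe sets) and 1, NDUFB7, fell (1.54%, against 3.06%). The 9 were CYCS, ATP5B and NDUFB3, described above, and NDUFB9, NDUFS1, NDUFA8 and NDUFC1 of complex I and ATP5F1 and ATP5G3 of ATP synthase.

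NDUFB9, a membrane-arm subunit, had the lowest adjusted p. Its female ratio was 1.13, 1.28 and 1.04 with sow milk, 1.38, 1.22 and 1.56 with milk formula, and 1.68, 2.00 and 1.86 with soy formula. Soy pools were the highest of their sex without overlap. The log2 difference between soy formula and sow milk was 0.68 (SE 0.12, adjusted p = 0.00816, limma), and in males it was 0.49 (SE 0.29, adjusted p = 0.772).

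ATP5F1, the b subunit of the peripheral stalk, had a female ratio of 1.36, 1.40 and 1.42 with sow milk, 1.45, 1.37 and 1.31 with milk formula, and 1.86, 1.94 and 1.78 with soy formula. Sow and milk formula pools overlapped, and the soy pools lay above both. Its log2 difference was 0.42 against sow milk (SE 0.08, adjusted p = 0.0122) and 0.44 against milk formula (SE 0.08, adjusted p = 0.0225; limma). ATP5G3, a c-ring gene, also had its soy pools highest, but its milk formula pools lay below its sow pools: 1.16, 1.19 and 1.18 with sow milk, 1.05, 0.980 and 1.12 with milk formula, and 1.45, 1.44 and 1.46 with soy formula. Its differences were 0.30 (adjusted p = 0.0442) and 0.47 (adjusted p = 0.0177).

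NDUFC1, a small subunit of the membrane arm, had the lowest adjusted p for soy formula against milk formula. Its female ratio was 1.78, 1.88 and 1.75 with sow milk, 1.52, 1.39 and 1.47 with milk formula, and 2.27, 2.35 and 2.18 with soy formula. The 3 diets did not overlap, with milk formula below sow milk and soy formula above it. The log2 difference was 0.64 against milk formula (SE 0.08, adjusted p = 0.00773) and 0.33 against sow milk (SE 0.08, adjusted p = 0.0312; limma). In males it was 0.30 (adjusted p = 0.943) and -0.03 (adjusted p = 0.996).

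NDUFA8, an accessory subunit on the intermembrane side, had a female ratio of 1.20, 1.19 and 1.23 with sow milk and 1.54, 1.53 and 1.59 with soy formula. The groups were far apart for their spread, with a log2 difference of 0.36 (SE 0.09, adjusted p = 0.0329, limma). NDUFS1 stood at 1.16, 1.14 and 1.24 with sow milk and 1.48, 1.55 and 1.57 with soy formula, a difference of 0.38 (SE 0.08, adjusted p = 0.0165).

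Just outside the threshold in females were UQCRB of complex III (log2 difference 0.51, adjusted p = 0.0517), COX7A2 (0.37, adjusted p = 0.0536) and COX6C (0.31, adjusted p = 0.0556; limma). The female counts moved with single pools. Without female sow pool 1, 2 or 3 the test passed 4, 4 and 5 genes, and without female soy pool 1, 2 or 3 it passed 6, 3 and 3. ATP5F1 and NDUFB9 were among them each time. A fit to all 18 arrays, in which the wider male spread enters, passed 0 of the 65 for soy formula against sow milk in females.

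Soy formula against milk formula gave 0 genes past the adjusted threshold over both sexes, where 0.660% of all probe sets passed. Without adjustment, at a p under 0.05, 18 genes (27.7%) were higher with soy formula and 0 lower, against 4.76% and 5.92% of all probe sets. The median log2 difference was 0.15 and 53 of 65 genes lay above 0, 81.5% against 49.0% of all probe sets. It was 0.08 with 46 genes above 0 without male soy pool 1, and 0.09 with 45 without male milk pool 3. The comparison shares its soy pools with that against sow milk, so the counts are not independent. Among the members the highest were NDUFB3 at 0.61 (adjusted p = 0.0909) and CYCS at 0.59 (adjusted p = 0.328; limma). The lowest was SDHAF2 at -0.21 (adjusted p = 0.611). NDUFB3 alone passed without male sow pool 1. NDUFV1 had soy pools above milk formula pools in both sexes, 1 gene or 1.54% against 0.689% of all probe sets.

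By complex, soy formula against milk formula over both sexes had a median of 0.23 for ATP synthase (from ATP5J at -0.11 to ATP5G3 at 0.40) and 0.17 for complex I (from NDUFB10 at -0.13). Without male milk pool 3 the median of complex I was 0.04, with 21 of 33 genes above 0, and without male soy pool 1 it was 0.09, with 23. For complex II it was 0.07, from SDHC at -0.17 to SDHB at 0.35 (adjusted p = 0.245, limma). For complex IV it was 0.10, from COX8H at -0.20 to COX6A1 at 0.21. UQCR10 and UQCRB had differences of 0.23 and 0.19.

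In females, soy formula against milk formula raised 5 genes, 7.69% against 2.25% of all probe sets in either direction and 1.45% upward. They were NDUFC1, NDUFB3, NDUFA8, ATP5G3 and ATP5F1. NDUFB3 had the largest log2 difference, 1.01 (SE 0.18, adjusted p = 0.0220), and NDUFA8 had 0.45 (SE 0.09, adjusted p = 0.0286; limma). The median over the 65 genes was 0.19, and 59 lay above 0, 90.8% against 49.1% of all probe sets. The test passed 3 and 1 genes without female milk pool 1 or 2, and 3, 2 and 1 without female soy pool 1, 2 or 3. NDUFC1 was among them each time, and a fit to all 18 arrays passed 0.

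Milk formula against sow milk gave 0 genes past the adjusted threshold over both sexes, against 0.756% of all probe sets. Before adjustment 4 of the 65, or 6.15%, had a p under 0.05, against 9.55% of all probe sets. The median was -0.01, with 31 genes above 0 (47.7%, against 51.2%). The highest member was CYCS at 0.33 (adjusted p = 0.734) and the lowest NDUFA1 at -0.67 (adjusted p = 0.102; limma). NDUFA1 passed without male milk pool 2, and NDUFB7 without male soy pool 2, 1 gene each.

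NDUFA1 is a membrane-arm subunit needed for complex I assembly. Its ratio in females was 1.94, 1.31 and 1.05 with sow milk, 0.997, 0.934 and 1.003 with milk formula, and 1.05, 1.15 and 1.12 with soy formula. In males it was 1.23, 0.926 and 1.19 with sow milk, 0.657, 0.849 and 0.419 with milk formula, and 0.941, 0.622 and 0.985 with soy formula. Milk formula pools lay below sow pools in both sexes, and the sow pools themselves were widely spread in females. The second NDUFA1 probe set gave 0.05 over both sexes (adjusted p = 0.975, limma), and the probe set used may bind related transcripts, as its name marks. NDUFB7 was the other gene with milk formula pools below sow pools in both sexes. These 2 genes were 3.08% of the members, against 0.731% of all probe sets, and 0 genes showed the reverse, against 0.982%.

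In females, milk formula against sow milk lowered 1 gene, NDUFB7 (log2 difference -0.40, SE 0.08, adjusted p = 0.0453, limma), 1.54% against 0.740% of all probe sets in either direction and 0.401% downward. Of the 65 genes 48 lay below 0 and 17 above it (26.2%, against 48.2% of all probe sets). Their median was -0.12, while the median over all probe sets was -0.01. Without female milk pool 2 it was -0.07, with 45 genes below 0. Without adjustment, at a p under 0.05, 15 genes were lower and 2 higher, against 6.08% and 4.85% of all probe sets. In complex I 28 of 33 genes were below 0, from NDUFC2 at -0.58 (adjusted p = 0.379) to NDUFA7 at 0.29 (adjusted p = 0.372). All 4 complex II genes and 11 of 14 ATP synthase genes were below 0. The NDUFB7 call was lost when any 1 of the 9 female pools was left out, with 0 genes passing each time.

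In males 0 of the 65 genes passed the test in any comparison. The share of all probe sets passing was 0.0961% for milk formula against sow milk, 0.284% for soy formula against sow milk and 0.0% for soy formula against milk formula. Before adjustment 1, 5 and 1 genes had a p under 0.05, against 6.09%, 7.76% and 6.18% of all probe sets. The medians were 0.10, 0.20 and 0.10, and each moved with single pools. Without male soy pool 1 the median for soy formula was 0.07 against sow milk and -0.03 against milk formula, and without male milk pool 3 the latter was also -0.03. For milk formula against sow milk it was -0.01 without male milk pool 1 and 0.18 without male milk pool 3. For soy formula against sow milk the highest male difference was that of NDUFAF3, a complex I assembly factor, at 0.80 (SE 0.31, adjusted p = 0.543), and the lowest that of NDUFB7. The median for ATP synthase was 0.36, with 13 of 14 genes above 0, and without male soy pool 1 it was 0.22, again with 13 above 0.

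No member showed an interaction of sex and diet past the adjusted threshold (limma, male minus female difference). Of all probe sets 0.00418% did for milk formula against sow milk, 0.0125% for soy formula against sow milk and 0.0% for soy formula against milk formula. Before adjustment 1, 1 and 5 members had a p under 0.05, against 5.67%, 7.79% and 7.40% of all probe sets. A call in females beside no call in males is thus not shown to be a difference between the sexes. For CYCS the male minus female difference for soy formula against sow milk was -0.61 (SE 0.46, adjusted p = 0.800).

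**Figure D3:**
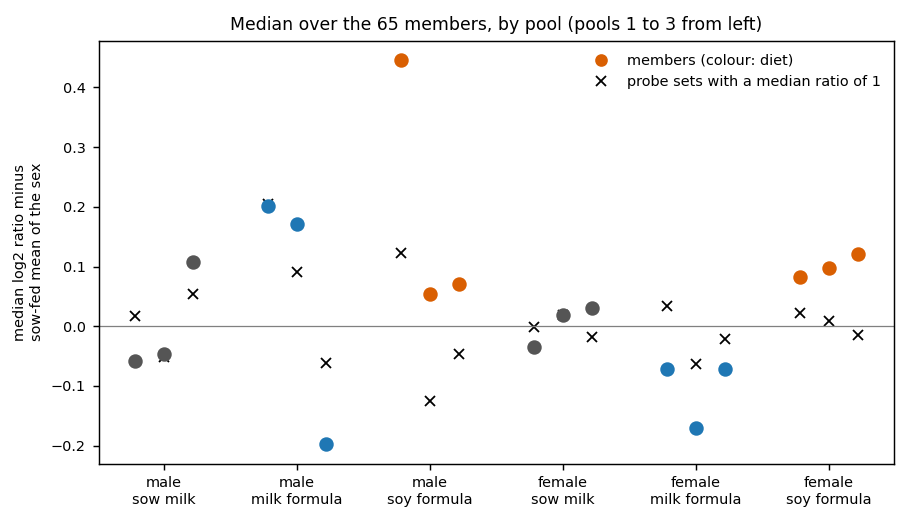
Median over the 65 genes of the log2 ratio minus the sow milk mean of the same sex (vertical axis), for each RNA pool, with circles coloured by diet and crosses for the same median over all probe sets whose ratio has a median of 1. Female soy pools lie at 0.08 to 0.12 and female milk formula pools at -0.17 to -0.07, while male soy pool 1 stands alone at 0.45.

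The level of the whole set differed between single male pools. Relative to the sow milk mean of its sex, male soy pool 1 had a median log2 ratio of 0.45 over the 65 genes and 55 of them above 0, whereas male soy pools 2 and 3 had medians of 0.05 and 0.07. The male milk formula pools stood at 0.20, 0.17 and -0.20. The female pools were closer together: 0.08, 0.10 and 0.12 with soy formula and -0.07, -0.17 and -0.07 with milk formula. Probe sets whose ratio has a median of 1, as it does for 59 of the 65 genes, had medians from -0.13 to 0.21 on the same arrays.

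Male and female pools differed for nearly all members, as they did for most of the array. Over all diets 61 genes differed, 93.8% against 62.6% of all probe sets (limma). In males 58 were lower (89.2%, against 36.8% of all probe sets) and 3 higher (4.62%, against 25.8%). The lowest was NDUFC1 at -2.04 (adjusted p = 1.22e-09), and the 3 higher were COX8H at 1.01, SDHAF2 at 0.95 and NDUFA3 at 0.34. The median was -0.77 for the 65 genes and -0.94 for all probe sets whose ratio has a median of 1. Of such probe sets, which include those of 59 of the 65 genes, 83.6% were called lower in males and 4.79% higher. The shares of the 65 genes were near these. After quantile normalization the count of genes past the threshold was 38, with 23 lower and 15 higher, and the median of the 65 genes was -0.13. The share of all probe sets in that run is not given here, so these counts cannot be set against the shares above. Sex and the set of arrays cannot be told apart.

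**Figure D4:**
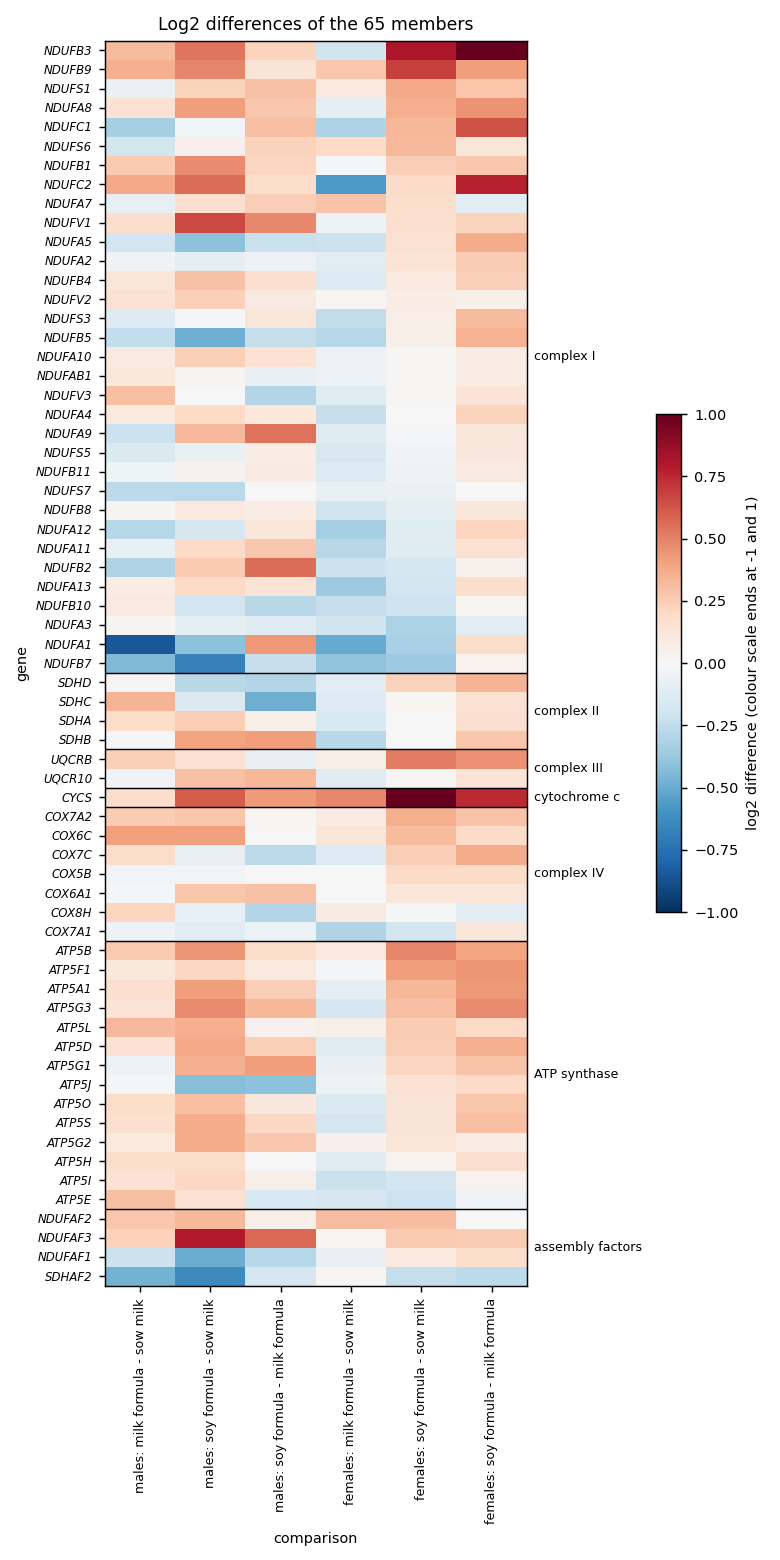
Log2 differences of the 65 genes (rows, by complex and, within a complex, ordered by the female difference between soy formula and sow milk) for the 3 pairs of diets in males and females (columns); red is higher and blue lower in the first diet named, and the colour scale ends at -1 and 1. The female column for soy formula against milk formula is above 0 for 59 genes, and NDUFB7 is below 0 in both sexes for either formula against sow milk.

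Other mitochondrial genes were counted in the same fits, in which 1.52% of all probe sets were called higher and 1.75% lower for soy formula against sow milk over both sexes. Of 17 genes of pyruvate oxidation and the citric acid cycle, which feed NADH and succinate to the chain, 2 rose with soy formula against sow milk over both sexes and 0 fell, with a median log2 difference of 0.31. They were citrate synthase (CS, 0.96, adjusted p = 0.0256) and fumarase (FH, 0.53, adjusted p = 0.0397; limma). Of 14 carriers and pores that move ATP, phosphate and metabolites across the mitochondrial membranes, 1 rose and 0 fell. It was the ADP/ATP carrier SLC25A5, with 1.34 over both sexes (SE 0.18, adjusted p = 0.000144), 1.19 in females (adjusted p = 0.00676) and 1.49 in males (adjusted p = 0.0439). Milk formula also raised SLC25A5, by 0.81 (adjusted p = 0.0365). The outer membrane channel gene VDAC2 was lower with soy than with milk formula, at -0.81 (adjusted p = 0.00716).

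Of 17 fatty acid oxidation genes, 2 rose with soy formula against sow milk and 0 fell: the acyl-CoA dehydrogenase ACADL (1.27, adjusted p = 0.00389) and the enoyl-CoA isomerase ECI2 (0.74, adjusted p = 0.00994; limma). Of 58 mitochondrial ribosomal protein genes 2 rose and 0 fell, with a median of 0.15 (MRPS34 0.75, MRPL35 0.66). Of 61 cytosolic ribosomal protein genes 1 rose, RPL22L1 (0.86, adjusted p = 0.00745), a share near that of all probe sets, and the median was 0.06. Of 15 genes against superoxide and peroxide 1 rose, the thioredoxin reductase TXNRD1 (0.57, adjusted p = 0.0244). Of 12 further assembly factors, 7 regulators of mitochondrial biogenesis and 6 other electron donors to ubiquinone, 0 passed over both sexes. At an unadjusted p under 0.05 these 3 lists had 2, 2 and 2 genes, all higher with soy formula, where 6.86% of all probe sets were.

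In females the same comparison called 3.60% of all probe sets higher and 3.06% lower. Of the 7 biogenesis regulators 2 rose and 0 fell: the mitochondrial transcription factor TFAM (0.54, adjusted p = 0.00861) and the DNA-binding protein SSBP1 (0.35, adjusted p = 0.0343; limma). Of the 6 electron donors 1 rose, the electron transfer flavoprotein dehydrogenase ETFDH (0.57, adjusted p = 0.0228), and of the 12 assembly factors 0 did. In the lists against superoxide and peroxide, of carriers, of fatty acid oxidation and of the citric acid cycle, 3 of 15, 3 of 14, 4 of 17 and 2 of 17 genes rose and 0 fell. The mitochondrial superoxide dismutase SOD2 was among them (0.54, adjusted p = 0.0123).

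The ribosomal lists in females held genes of both directions. Of the 58 mitochondrial ribosomal protein genes 9 rose, with MRPS27 highest (0.82, adjusted p = 0.00937), and 2 fell, MRPS15 (-0.53, adjusted p = 0.0198) and MRPS26 (-0.29, adjusted p = 0.0485; limma). Of the 61 cytosolic ribosomal protein genes 1 rose (RPL22L1, 0.93) and 2 fell, RPL32 (-1.11, adjusted p = 0.0177) and RPS6 (-0.98, adjusted p = 0.0431). The median of the cytosolic list was -0.07 in females, with 18 of 61 genes above 0.

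Markers of other cell types moved with soy formula too. Against sow milk over both sexes, 1.75% of all probe sets were called lower. Of 8 macrophage markers 5 fell in that comparison, among them VSIG4 (-1.0), CD5L (-0.92), AIF1 (-0.78) and C1QA (-0.72). Their summed ratio was 6.54 to 8.46 in female soy pools against 11.5 to 13.2 in female sow pools, and 4.33 to 5.16 against 5.74 to 7.73 in males. Of 8 endothelial markers 3 fell (CDH5 -0.91, ENG -0.76, TEK -0.71). Their summed ratio was 5.48 to 6.40 with soy formula against 8.45 to 9.86 with sow milk in females, and 2.98 to 3.80 against 4.37 to 5.49 in males. Of 9 stellate cell markers 2 fell (DCN -1.04, RGS5 -0.79), of 7 erythroid markers 1 (TFRC -2.54), and of 8 lymphocyte markers 0. Another erythroid marker, the beta-globin gene HBB, rose with soy formula in females, by 0.86 against sow milk (adjusted p = 0.00775) and by 0.93 against milk formula (adjusted p = 0.0144; limma). Against sow milk in females, 3.06% of all probe sets were called lower. There the lymphocyte marker CD4 (-0.48, adjusted p = 0.0194) fell, as did the endothelial markers PECAM1 (-0.71, adjusted p = 0.00226) and LYVE1 (-0.57, adjusted p = 0.0498). Of 14 hepatocyte markers 2 fell over both sexes, HP (-0.40) and SERPINA1 (-0.39). Their summed ratio was 16.3 to 17.6 against 18.2 to 19.3 in females and 9.19 to 11.7 against 10.1 to 12.7 in males.

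Soy formula against milk formula called 0.401% of all probe sets lower over both sexes. There 5 of the 8 macrophage markers fell (VSIG4, CD163, AIF1, C1QC and C1QA). The summed ratio of the 8 was 6.54 to 8.46 against 11.4 to 13.4 in females and 4.33 to 5.16 against 6.43 to 8.00 in males. The hepatocyte marker CPS1, an enzyme of the urea cycle, was higher with soy than with milk formula (0.92, adjusted p = 0.00325). With milk formula against sow milk, 0 macrophage and 0 endothelial markers passed over both sexes, where 0.301% of all probe sets were called lower. CPS1 fell over both sexes (-1.11, adjusted p = 0.00027, limma). In females, where 0.401% of all probe sets were called lower, the macrophage marker CD5L fell with milk formula (-0.83, adjusted p = 0.0376). Over both sexes, TFRC and RGS5, single markers of the erythroid and stellate lists, fell with milk formula too (-2.47, adjusted p = 9.91e-07, and -0.99, adjusted p = 0.0264; limma). Their lists as a whole did not fall with them. Relative to the sow milk mean of the sex, the median of the 7 erythroid markers was 0.08 to 0.64 in female milk formula pools. In male milk formula pools it was 0.11 to 0.23. For the 9 stellate markers it was -0.11 to 0.13 and 0.05 to 0.27. Ribosomal RNA was read by 4 probe sets. In females a 28S set stood at 0.0773 to 0.155 in soy pools against 0.159 to 0.252 in sow pools and an 18S set at 0.165 to 0.591 against 0.699 to 0.818, and the other two overlapped. In males those other sets were lower with either formula than with sow milk, which stood at 2.42 to 2.60 (28S) and 0.946 to 1.01 (18S). They ranged over 1.66 to 2.05 and 0.304 to 0.625 with soy formula, and over 1.85 to 2.35 and 0.46 to 0.84 with milk formula. The first 28S and 18S sets overlapped between male soy and sow pools. For a pair of GAPDH probe sets, the 3' ratio over the 5' ratio was 1.14 to 1.25 in female soy pools against 0.996 to 1.18 in female sow pools. In males it was 0.626 to 0.665 against 0.59 to 0.72. For actin it was 1.08 to 1.27 against 1.03 to 1.08 in females and 0.928 to 1.02 against 0.739 to 0.979 in males. Being made of ratios, such a quotient only compares arrays and does not measure how intact the RNA was. The part of these markers and signs in the results on the respiratory chain was not tested.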

How the data were processed

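The deposited table gives 1 linear expression ratio per probe set and array (Affymetrix porcine arrays, 18 arrays, 24123 probe sets). The deposited ratios were made with GCOS and RMA, per the submitters' processing notes. Their versions and the genome build were not stated there, so no coordinates or sequences are shown. Per the values, the ratio has a median of 1 (within 0.002) over the arrays for 21.8% of the tested probe sets. All 18 columns matched a sample. Log2 of the ratio was taken, 188 control probe sets were set aside, and 23935 were fitted in limma 3.58.1 (R 4.3.3) with 1 mean per group. Differences over both sexes and interactions came from all 18 arrays, those within a sex from its 9 arrays. P-values were adjusted by Benjamini-Hochberg over all probe sets, with a threshold of 0.05. Array intensities are not given, so the number of pools limits the precision. The fit was tested on simulated data.

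Probe sets naming several genes (4) were left out. A member's probe set was the one with the highest mean log2 ratio, which need not be the one with the strongest signal. NDUFA4, filed by its symbol under complex I, is now placed in complex IV, and its symbol stands on 2 RefSeq genes. The members, gene lists and tests were chosen with earlier results of these data known. Genes named are the called members, the highest and lowest member per complex, SDHA to SDHD, CYCS, isoform groups, and up to 4 called genes per other list; members just outside the threshold and NDUFS7 were named after their values were seen. Alternatives were quantile normalization, trended and robust variances, leaving out the 40% dimmest probe sets, array weights by sex, the mean of a gene's probe sets, a pool block, median centring, adjustment over 1 probe set per gene, all 18 arrays for within-sex results, and each pool left out. Pool numbers did not pair pools between groups (median correlation of deviations -0.00839 over 18 pairs).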

Additional observations from a re-analysis of the deposited data

Results flagged for a closer look

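Some members had all 3 pools of a diet on one side of the reference mean in males and all 3 on the other side in females. Groups of 3 pools are too small for a check of single outlying pools, and 0 of the differences below passed the adjusted interaction test (limma, adjusted p from 0.542 to 0.931). Values are the male minus the female log2 difference.

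For milk formula against sow milk the complex I subunit NDUFC2 had the largest, 0.95 (male 0.38, female -0.58). The ATP synthase subunits ATP5E, ATP5I and ATP5H had 0.47, 0.37 and 0.30, and SDHA had 0.34. All of these were positive in males and negative in females.

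For soy formula against sow milk, NDUFA13, ATP5I and NDUFB2 were higher in males and lower in females, with 0.39, 0.39 and 0.43. The other way round were the assembly factor NDUFAF1 (-0.60), NDUFA5 (-0.57), ATP5J (-0.56), NDUFB5 (-0.55) and the complex II anchor SDHD (-0.51).

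For soy formula against milk formula, COX7C, SDHD and ATP5J were lower in males and higher in females, with -0.64, -0.63 and -0.61. ATP5J and SDHD appear under both soy comparisons, which share the soy pools.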

How the results depend on the processing

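No difference past the threshold over both sexes changed direction in any alternative run. Differences below it and near 0 did in some, and so did the median for milk formula against sow milk (-0.01), which ran from -0.06 to 0.04 with 1 pool left out. For soy formula against sow milk over both sexes, 5 members passed in the reported fit, 3 with trended and robust variances, 1 (NDUFB7) with array weights by sex, 4 with quantile normalization and 0 to 6 with 1 pool left out. With the pool number as a replicate block 3 passed (CYCS, NDUFB3 and NDUFB9). The leave-one-out range was 0 to 1 for each of the other diet pairs over both sexes. For milk formula against sow milk in females 1 passed, but 2 with quantile normalization and 0 with trended and robust variances, without the 40% dimmest probe sets, with the block, with all 18 arrays or with any 1 pool left out. For soy formula against sow milk in females 10 passed, 5 with trended variances, 0 with all 18 arrays and 3 to 13 with 1 pool left out. For soy formula against milk formula in females 5 passed, 3 with trended variances, 0 with all 18 arrays and 1 to 6 with 1 pool left out. The count for males against females was 61, and 38 after quantile normalization, a run for which the share of all probe sets is not given here. The cause of these changes was not tested. With 3 pools per group of unknown size, a p that misses the threshold does not show that a gene was unchanged.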
